A study of Mus musculus with 18 samples.

Results

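Transcript levels of 10 genes used as markers of smooth muscle cells, pericytes and myofibroblasts were compared over 3 types of kidney region in a mouse model of polycystic kidney disease. The genes were Acta2, Tagln, Myh11, Cnn1, Des, Rgs5, Mcam, Cspg4, Myl9 and Tpm2. They were taken by symbol from a table of 32285 genes, and each had 1 row. All 10 passed the filter on low counts and were among the 16034 genes tested. RNA sequencing gave 18 libraries, 6 each from F4/80-high cystic regions, F4/80-low cystic regions and non-cystic regions, microdissected from frozen sections of 3 kidneys. F4/80, the product of Adgre1, marks the surface of macrophages. Every kidney contributed 2 libraries to every region type.

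All animals were male C57BL/6 mice of the iKspCre-Pkd1del line. The non-cystic regions thus came from Pkd1 knockout kidneys too, and no wild-type kidney was compared. Deletion of Pkd1 within each region type was not examined. In this line a kidney-specific Cre that tamoxifen activates, bred to homozygosity, removes exons 2 to 11 of Pkd1. Tamoxifen was given by mouth at 12.5 mg/kg on postnatal days 18 and 19, and the animals were killed in a mild cystic phase judged by magnetic resonance imaging. The labelled age was 269 for kidneys 1 and 3 and 297 for kidney 2, with no unit. The library titles call the libraries of each kidney and region type biological replicates. Kidneys are numbered in the labels without a word on whether each came from its own mouse. The labelled age sets kidney 2 apart from kidneys 1 and 3, which could come from 1 mouse. P-values therefore measure only the spread between these samples, some of which may be technical or within 1 animal.

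Smooth muscle cells of vessel walls contract by sliding smooth muscle actin (Acta2) over smooth muscle myosin (Myh11), with tropomyosin, calponin and transgelin on the thin filament. Pericytes lie on capillaries, and in the kidney they and perivascular fibroblasts are regarded as a source of myofibroblasts, the matrix-producing cells of fibrosis. Myofibroblasts take up Acta2 and other early contractile genes, while Myh11 and calponin 1 (Cnn1) are the usual marks of mature smooth muscle. Many of these genes are read by serum response factor, which binds a DNA element called the CArG box together with myocardin-related cofactors.

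The libraries held 5841975 to 8662288 counts in F4/80-high, 7186518 to 9188813 counts in F4/80-low and 5366651 to 9002054 counts in non-cystic regions. Mitochondrially encoded genes took 1.49 to 4.06% of the counts in F4/80-high, 7.71 to 11.1% in F4/80-low and 10.6 to 15.4% in non-cystic libraries. The 8 proximal tubule markers checked summed to 46.6 to 1472 CPM in F4/80-high, 2655 to 5848 CPM in F4/80-low and 5731 to 9832 CPM in non-cystic libraries. CPM here means counts scaled to the library total times the library's factor from the trimmed mean of M values (TMM). In bulk tissue, fewer cells of a type and less RNA per cell cannot be told apart. One library stood apart: replicate 1 of kidney 3 was the highest of the 6 F4/80-high libraries for 8 of the 10 genes, all but Cnn1 and Cspg4. Calls that it changes are given with and without it. Among the F4/80-low libraries, replicate 1 of kidney 1 was the highest for 6 of the 10 genes.

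Most of the 10 genes were higher in F4/80-high regions than in non-cystic regions. Acta2, Tagln, Des, Tpm2, Myl9, Cspg4, Mcam and Rgs5 rose there, by 0.96 to 2.88 on the log2 scale, and Myh11 and Cnn1 did not pass the test. The rise was seen in actin, transgelin, myosin light chain, tropomyosin and desmin, but not in the heavy chain of smooth muscle myosin. Of the pericyte markers, it was seen in Cspg4, Mcam and Rgs5. The calls of Mcam and Rgs5 were lost in 10 and 17 of 31 alternatives. In edgeR's quasi-likelihood test with Benjamini-Hochberg adjustment over all genes tested, 8 of 10 were higher at an adjusted p below 0.05 and 0 were lower, against 19.7% of all genes higher and 19.5% lower (39.2% in either direction). At an unadjusted p below 0.05 the counts were the same, 8 higher and 0 lower. DESeq2 called 8 higher and 0 lower, and limma voom on the 18 libraries called 7 higher and 0 lower. Over all genes DESeq2 called 3335 higher and 3150 lower, and limma voom 3836 higher and 3663 lower. With no filter on low counts 3 stayed past the threshold (Des, Cspg4 and Mcam), and the adjusted p of Acta2, Tagln, Myl9, Tpm2 and Rgs5 lay between 0.0627 and 0.125.

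Fewer of the 10 genes were called in F4/80-low against non-cystic regions. Only Des was called higher, 1 of 10 genes against 1.51% of all genes, and 0 were lower, against 0.0249% of all genes (1.53% in either direction). At an unadjusted p below 0.05, 3 were higher and 0 lower, while DESeq2 called 1 higher and 0 lower and limma voom called 0 in either direction. Over all genes DESeq2 called 601 higher and 74 lower there, and limma voom 192 higher and 11 lower. Between F4/80-high and F4/80-low regions, Des again was the only gene called higher, against 10.3% of all genes higher and 14.0% lower (24.3% in either direction). Here 0 of 10 were lower, 5 were higher and 0 lower at an unadjusted p below 0.05, DESeq2 called 5 higher and 0 lower, and limma voom called 4 higher and 0 lower. The counts at an unadjusted p have no share over all genes beside them. Nor have those of DESeq2 between the cystic region types, so these counts cannot be read against one here. For limma voom between the cystic region types, the count of all genes higher is given under the dependence on the processing. The median log2 difference of the 10 genes was 0.78 for F4/80-low against non-cystic, 1.64 for F4/80-high against non-cystic and 0.78 for F4/80-high against F4/80-low, where the median of all genes tested was 0.00, 0.04 and 0.04. The 3 comparisons share libraries and are not independent of each other.

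**Figure D1:**
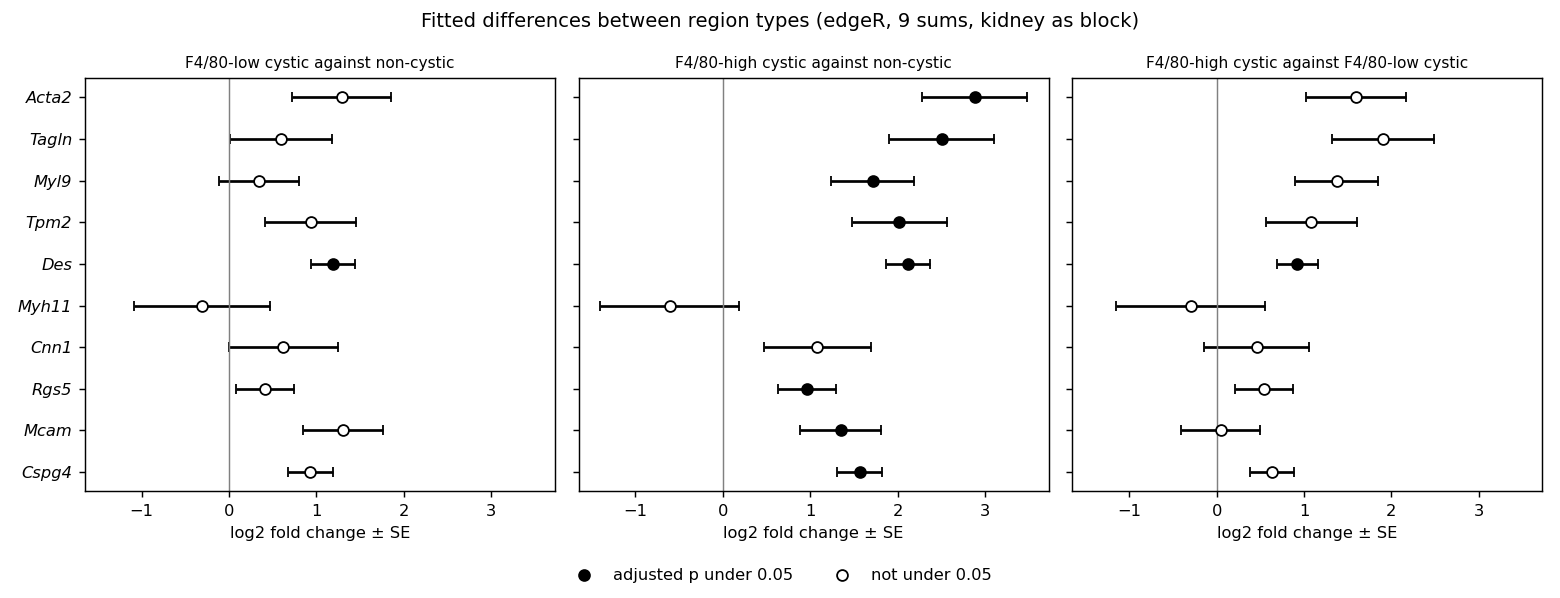
Fitted log2 fold change with its standard error for the 10 genes in the 3 comparisons, from 9 sums of counts (3 region types in 3 kidneys) with the kidney as a block. Filled points have an adjusted p under 0.05: 1 gene in the left panel, 8 in the middle panel and 1 in the right panel, and Myh11 is the only gene left of 0 in each.

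Acta2 encodes the actin of vascular smooth muscle and is the usual stain for myofibroblasts. It lies on chromosome 19 at 34241090 to 34255590, minus strand (GRCm38, GENCODE M21, as are the positions of the other genes). Its level ranged from 67.3 to 355.2 CPM in the 6 F4/80-high libraries (median 165.6), from 6.59 to 108.3 CPM in the 6 F4/80-low libraries (median 64.9) and from 3.18 to 70.9 CPM in the 6 non-cystic libraries (median 24.2). Of the F4/80-high libraries, 5 of 6 lay above every non-cystic library, and replicate 2 of kidney 3 fell just inside the non-cystic range. Summed by kidney, Acta2 averaged 176.1 ± 45.6 CPM in the F4/80-high, 67.2 ± 32.5 CPM in the F4/80-low and 31.2 ± 28.1 CPM in the non-cystic sums (SD over n = 3 kidneys). The F4/80-high level exceeded the non-cystic one by 2.88 ± 0.60 (log2 ± SE, edgeR adjusted p = 0.00948), with per-kidney differences of 2.87, 1.41 and 4.26 in kidneys 1, 2 and 3. Without replicate 1 of F4/80-high kidney 3 the difference was 2.21 (adjusted p = 0.000345), without kidney 3 as a whole it was 2.05 (adjusted p = 0.0126), and without kidney 2 it was 3.66 (adjusted p = 0.00212). F4/80-low exceeded non-cystic by 1.29 ± 0.56 (adjusted p = 0.451), and F4/80-high exceeded F4/80-low by 1.59 ± 0.57 (adjusted p = 0.0874), so neither step was called on its own. The second step was called in 5 of 31 alternatives. Among them were the fits without replicate 1 of F4/80-low kidney 1 (1.88, adjusted p = 0.0366) and without kidney 2 (1.85, adjusted p = 0.0455). It was also called with replicate 1 of F4/80-high kidney 3 left out (0.92, adjusted p = 0.0350) and by DESeq2 (1.63, adjusted p = 0.00174).

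The 2 libraries of 1 kidney and region type often disagreed on Acta2. The median ratio of the higher to the lower library was 2.59 over the 9 pairs, and the largest was 10.6, in non-cystic kidney 1, where the libraries had 33.6 and 3.18 CPM. Reads of Acta2 can be shared with the near-identical muscle actins Actg2, Acta1 and Actc1. Their highest counts were low: Actg2 had at most 18 counts in an F4/80-high library and 10 in an F4/80-low library and was at 0 in all 6 non-cystic libraries. Acta1 reached 35 counts in an F4/80-high, 8 in an F4/80-low and 71 in a non-cystic library, and Actc1 reached 5 counts, in a non-cystic library. In the same order Acta2 itself had up to 3539, 886 and 576 counts, and at least 534, 44 and 19. The lowest non-cystic count of Acta2 thus lay below the highest of Acta1. How reads shared between these genes were counted is not known.

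Tagln, on chromosome 9 at 45929619 to 45936058, minus strand, encodes transgelin (SM22), an actin-binding protein that appears early when smooth muscle or myofibroblast genes come on. Its level ranged from 25.0 to 103.8 CPM in F4/80-high libraries (median 33.3), from 5.09 to 20.6 CPM in F4/80-low libraries (median 12.6) and from 3.86 to 17.2 CPM in non-cystic libraries (median 6.72). All 6 F4/80-high libraries lay above all 12 others, while the F4/80-low and non-cystic libraries overlapped. All 6 above all 6 was seen in 14.3% of all genes for F4/80-high against non-cystic and in 7.35% for F4/80-high against F4/80-low. The means were 46.7 ± 22.6 CPM in the F4/80-high, 12.9 ± 5.79 CPM in the F4/80-low and 8.89 ± 5.36 CPM in the non-cystic sums (SD over n = 3 kidneys). F4/80-high exceeded non-cystic by 2.50 ± 0.60 (log2, adjusted p = 0.0169), and by 2.05 (adjusted p = 0.00505) without replicate 1 of F4/80-high kidney 3. Without kidney 1 the call was lost (2.34, adjusted p = 0.0778), without kidney 2 the difference was 3.21 (adjusted p = 0.00779) and without kidney 3 it was 1.89 (adjusted p = 0.0288). F4/80-high exceeded F4/80-low by 1.91 ± 0.59 (adjusted p = 0.0580), and passed the threshold in 12 of 31 alternatives. It did so without non-cystic kidney 2 replicate 2 (1.86, adjusted p = 0.0483), F4/80-low kidney 1 replicate 1 (2.04, adjusted p = 0.0448), F4/80-high kidney 1 replicate 1 (2.11, adjusted p = 0.0416), F4/80-high kidney 3 replicate 1 (1.52, adjusted p = 0.0266) or kidney 2 (2.32, adjusted p = 0.0385). F4/80-low exceeded non-cystic by 0.60 ± 0.58 (adjusted p = 0.818). Exons of Tagln overlap Gm48529 and Pcsk7 on the other strand, and the library kit does not mark strand. Whether counting was stranded is not known, so Tagln may have gained or lost reads in the overlap.

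**Figure D2:**
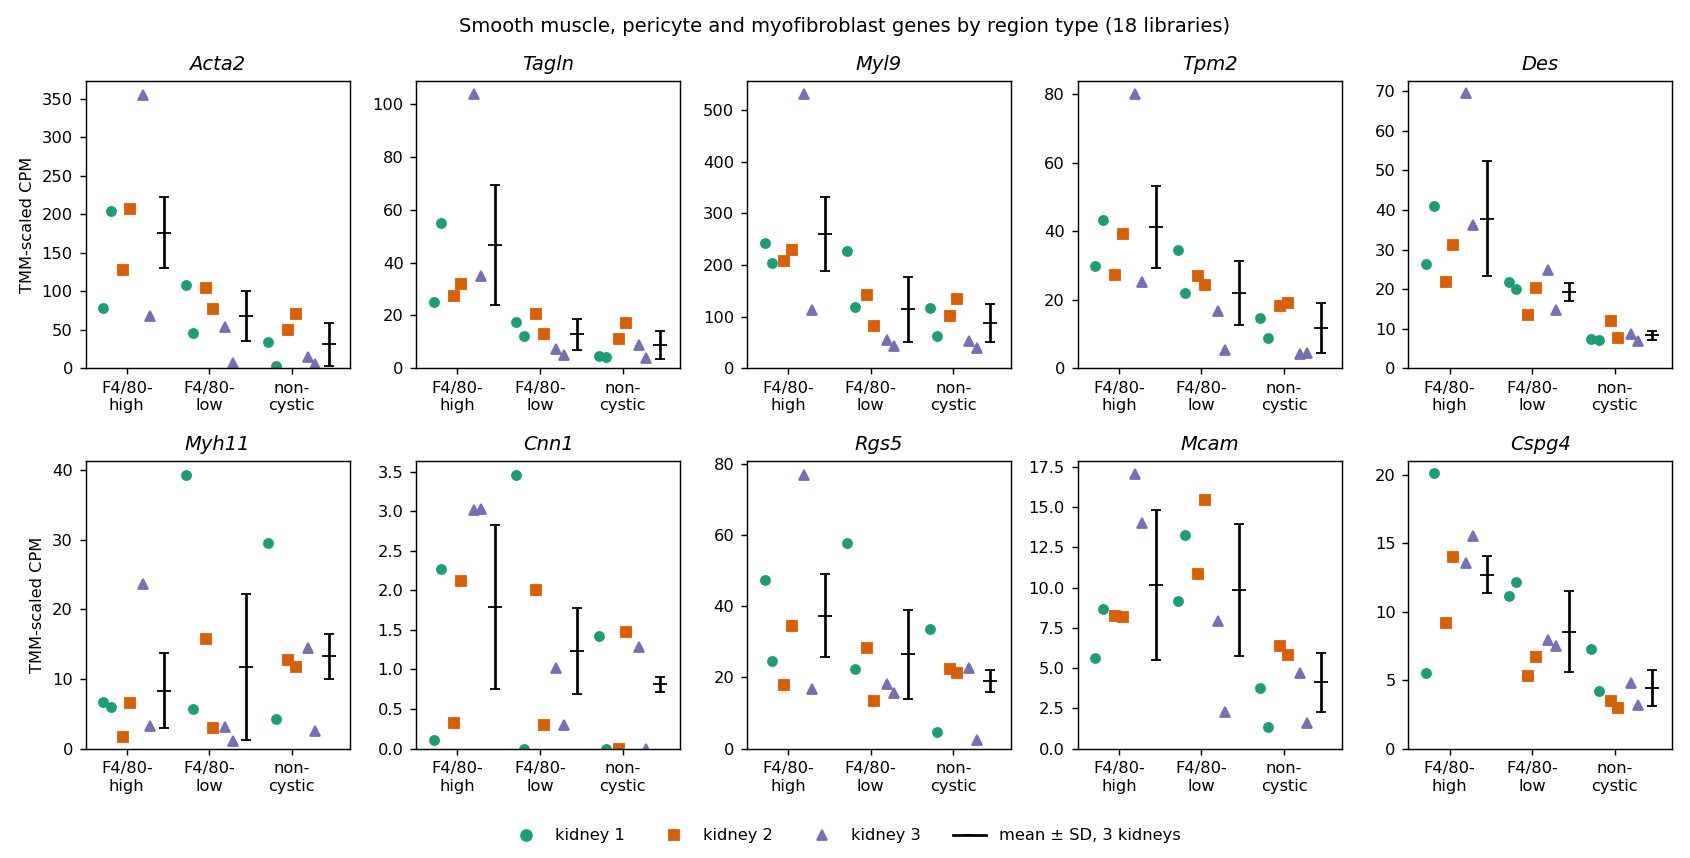
TMM-scaled CPM (linear axis, its own scale for each gene) of the 10 genes in the 18 libraries by region type, with kidneys as symbols and the mean ± SD of the 3 kidney sums as black bars. The 6 F4/80-high libraries of Tagln sit between 25.0 and 103.8 CPM, above the other 12, whereas the Myh11 libraries of the 3 region types overlap.

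Myl9, on chromosome 2 at 156775420 to 156781658, plus strand, encodes the regulatory light chain that is phosphorylated to switch on smooth muscle contraction. It had 112.5 to 531.2 CPM in F4/80-high libraries (median 218.0), 43.3 to 227.1 CPM in F4/80-low libraries (median 100.3) and 39.6 to 134.4 CPM in non-cystic libraries (median 81.7). The highest value, in replicate 1 of F4/80-high kidney 3, stood apart from the next, 242.4 CPM. Of the F4/80-high libraries, 5 of 6 lay above every non-cystic one. F4/80-high exceeded non-cystic by 1.72 ± 0.47 (log2, adjusted p = 0.0230), and by 1.08 (adjusted p = 0.00320) without that library. Without kidney 1 the difference was 1.90 and was not called (adjusted p = 0.0535), and without kidney 3 it was 1.03 (adjusted p = 0.00557). F4/80-low exceeded non-cystic by 0.34 ± 0.46 (adjusted p = 0.882), with values near 0 in kidneys 2 and 3 (-0.07 and 0.03). F4/80-high exceeded F4/80-low by 1.37 ± 0.48 (adjusted p = 0.0721). This was called without replicate 1 of F4/80-low kidney 1 (1.58, adjusted p = 0.0244) or with replicate 1 of F4/80-high kidney 3 left out (0.77, adjusted p = 0.0277).

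Tpm2, on chromosome 4 at 43514711 to 43523765, minus strand, encodes beta-tropomyosin, which lies along the actin filament. Its level was 25.1 to 80.1 CPM in F4/80-high libraries (median 34.6), 5.24 to 34.5 CPM in F4/80-low libraries (median 23.2) and 4.21 to 19.1 CPM in non-cystic libraries (median 11.8). All 6 F4/80-high libraries lay above all 6 non-cystic ones, which was seen in 14.3% of all genes. F4/80-high exceeded non-cystic by 2.02 ± 0.55 (log2, adjusted p = 0.0258), by 1.58 (adjusted p = 0.00170) without replicate 1 of F4/80-high kidney 3, and by 2.25 with no call (adjusted p = 0.0814) without kidney 1. Without kidney 2 it was 2.68 (adjusted p = 0.0188) and without kidney 3 it was 1.16 (adjusted p = 0.00223), the per-kidney differences being 1.56, 0.81 and 3.66. F4/80-low exceeded non-cystic by 0.94 ± 0.52 (adjusted p = 0.601), and F4/80-high exceeded F4/80-low by 1.08 ± 0.52 (adjusted p = 0.184). The difference between the cystic region types was 0.62 (adjusted p = 0.128) without replicate 1 of F4/80-high kidney 3 and 0.33 (adjusted p = 0.340) without kidney 3 as a whole. It was called in 3 of 31 alternatives, DESeq2 among them (1.13, adjusted p = 0.0399).

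Promoters are shown for Acta2 and Myl9 because they alone held a CArG-like box among the 8 of the 10 genes with an entry in the RefSeq promoter table (GRCm38.p6). Tagln and Myh11 had no entry. The 250 bases before each RefSeq start were searched for CC, then 6 bases of which at least 5 were A or T, then GG, a pattern that reads the same on both strands. Such a box was found in 2 of these 8 genes and in 8.59% of 32851 promoters, and the strict CArG box, with all 6 inner bases A or T, in 1.467% of promoters. Each line gives 30 bases 5′ to 3′ on the gene's strand, with the box in capitals. Only the first Myl9 box is strict.
Acta2, chr19:34255438-34255467, minus strand, box from 84 bases before the start: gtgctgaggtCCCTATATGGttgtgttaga
Acta2, chr19:34255388-34255417, minus strand, box from 34 bases before the start: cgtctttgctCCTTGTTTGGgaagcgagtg
Myl9, chr2:156775293-156775322, plus strand, box from 161 bases before the start: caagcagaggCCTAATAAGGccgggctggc
Myl9, chr2:156775355-156775384, plus strand, box from 99 bases before the start: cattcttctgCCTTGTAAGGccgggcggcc
GENCODE M21 starts Acta2 further upstream than RefSeq, so both Acta2 windows lie in an exon of it, in the UTR at its 5′ end, and no annotated feature overlaps the Myl9 windows. A match is a description of these letters and was not tested as a binding site.

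Des, on chromosome 1 at 75360329 to 75368579, plus strand, encodes desmin, the intermediate filament of muscle cells and pericytes, which podocytes take up after injury. It was called higher in all 3 comparisons. Its level was 21.7 to 69.4 CPM in F4/80-high libraries (median 33.8), 13.6 to 24.8 CPM in F4/80-low libraries (median 20.2) and 6.82 to 11.9 CPM in non-cystic libraries (median 7.52). Every F4/80-high and every F4/80-low library lay above every non-cystic one, and 5 of 6 F4/80-high libraries lay above every F4/80-low one. In F4/80-low against non-cystic regions, 1.78% of all genes had all 6 libraries above all 6, and in F4/80-high against non-cystic regions 14.3% had. The means were 37.8 ± 14.5 CPM in the F4/80-high, 19.4 ± 2.29 CPM in the F4/80-low and 8.39 ± 1.15 CPM in the non-cystic sums (SD over n = 3 kidneys). Des was higher in F4/80-high than in non-cystic regions by 2.12 ± 0.25 (log2, adjusted p = 0.000308), and this call held in 31 of 31 alternatives.

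The F4/80-low level of Des exceeded the non-cystic one by 1.19 ± 0.25 (log2, adjusted p = 0.0491), with 1.51, 0.79 and 1.32 in kidneys 1, 2 and 3. That adjusted p lay just under the threshold and rose above it in 19 of 31 alternatives, although the log2 difference stayed between 1.02 and 1.43. The adjusted p was 0.0501 to 0.180, with differences of 1.08 to 1.22, when 1 of 12 libraries was left out. These were the non-cystic libraries other than replicate 1 of kidney 2, F4/80-low kidney 1 (either replicate), kidney 2 replicate 2 and kidney 3 replicate 1, and replicate 2 of each F4/80-high kidney. Without kidney 1 the difference was 1.02 (adjusted p = 0.449) and without kidney 2 it was 1.43 (adjusted p = 0.0567). F4/80-high exceeded F4/80-low by 0.92 ± 0.24 (adjusted p = 0.0209), higher in 3 of 3 kidneys. This call was lost without F4/80-high kidney 1 replicate 2 (0.83, adjusted p = 0.0604), F4/80-high kidney 2 replicate 2 (0.85, adjusted p = 0.0547), kidney 1 (1.08, adjusted p = 0.0799) or kidney 3 (0.65, adjusted p = 0.0739). Exons of Des overlap Gm15179 on the other strand. The 2 libraries of 1 kidney and region type differed by at most 1.91-fold for Des, the smallest such maximum of the 10 genes.

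Myh11, on chromosome 16 at 14194535 to 14291372, minus strand, encodes the heavy chain of smooth muscle myosin and is a restricted marker of mature smooth muscle. It had 1.64 to 23.7 CPM in F4/80-high libraries (median 6.22), 1.05 to 39.4 CPM in F4/80-low libraries (median 4.34) and 2.50 to 29.5 CPM in non-cystic libraries (median 12.2). The 3 ranges overlapped almost wholly. The means were 8.31 ± 5.42 CPM in the F4/80-high, 11.7 ± 10.5 CPM in the F4/80-low and 13.2 ± 3.29 CPM in the non-cystic sums (SD over n = 3 kidneys). F4/80-high differed from non-cystic by -0.61 ± 0.80 (log2, adjusted p = 0.588), F4/80-low from non-cystic by -0.31 ± 0.78 (adjusted p = 0.947), and F4/80-high from F4/80-low by -0.30 ± 0.85 (adjusted p = 0.835). These errors do not show equal levels.

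The Myh11 difference turned on kidney 3. F4/80-high against non-cystic gave -1.44 and -1.54 in kidneys 1 and 2 but 0.47 in kidney 3, where replicate 1 had 23.7 CPM and replicate 2 had 3.28 CPM. F4/80-low against non-cystic gave 0.44, -0.30 and -2.32 in kidneys 1, 2 and 3. Without replicate 1 of F4/80-high kidney 3, Myh11 was called lower than in non-cystic regions (-1.62, adjusted p = 0.0228), and likewise without kidney 3 (-1.496, adjusted p = 0.00116). Without kidney 3 it was also called lower in F4/80-high than in F4/80-low regions (-1.59, adjusted p = 0.00182). Scaling by total counts in place of TMM turned the F4/80-high against non-cystic value to 0.03 (adjusted p = 0.982) and the F4/80-high against F4/80-low value to 0.14 (adjusted p = 0.918). The 2 libraries of 1 kidney and region type differed by a median of 5.39-fold for Myh11, from counts between 7 and 296.

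Cnn1, on chromosome 9 at 22099216 to 22109630, plus strand, encodes calponin 1, a thin-filament protein of differentiated smooth muscle, and was close to the detection limit. Summed over the 6 libraries it had 101 counts in F4/80-high, 54 in F4/80-low and 31 in non-cystic regions, and it was at 0 in 1 F4/80-low and 3 non-cystic libraries. A count of 0 allows up to 0.411 CPM in that F4/80-low library and up to 0.503, 0.518 and 0.682 CPM in those non-cystic libraries (3 counts). The range was 0.102 to 3.02 CPM in F4/80-high (median 2.19), 0 to 3.46 CPM in F4/80-low (median 0.661) and 0 to 1.48 CPM in non-cystic libraries (median 0.643). The ranges overlapped, with 4 of 6 F4/80-high libraries above every non-cystic one. No difference was called: F4/80-high against non-cystic was 1.08 ± 0.61 (log2, adjusted p = 0.188), F4/80-low against non-cystic was 0.62 ± 0.62 (adjusted p = 0.817), and F4/80-high against F4/80-low was 0.46 ± 0.60 (adjusted p = 0.616).

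Set beside Myh11 on a scale that allows for gene length (CPM per kb of exon), Acta2 was most abundant in F4/80-high regions. The ratio of Acta2 to Myh11 was 40.2 to 267.4 in the 6 F4/80-high libraries (median 90.3), 9.52 to 91.0 in F4/80-low libraries (median 25.7) and 2.63 to 21.0 in non-cystic libraries (median 5.90). All F4/80-high ratios lay above all non-cystic ones, and F4/80-high and F4/80-low ratios overlapped. The ratio of Tagln to Myh11 was 14.2 to 63.7 in F4/80-high (median 27.1), 1.69 to 18.6 in F4/80-low (median 8.75) and 0.622 to 5.91 in non-cystic libraries (median 3.64). Kidney 3, the one kidney with more Myh11 in F4/80-high than in non-cystic regions, gave Acta2 ratios of 53.8 in F4/80-high, 50.4 in F4/80-low and 3.87 in non-cystic regions. Some ratios rest on few Myh11 counts, at least 15 in F4/80-high, 7 in F4/80-low and 11 in non-cystic libraries. The highest Acta2 ratio, in replicate 1 of F4/80-high kidney 2, rests on 15. These ratios were chosen after the values were seen and are a description without a test or a share over all genes.

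**Figure D3:**
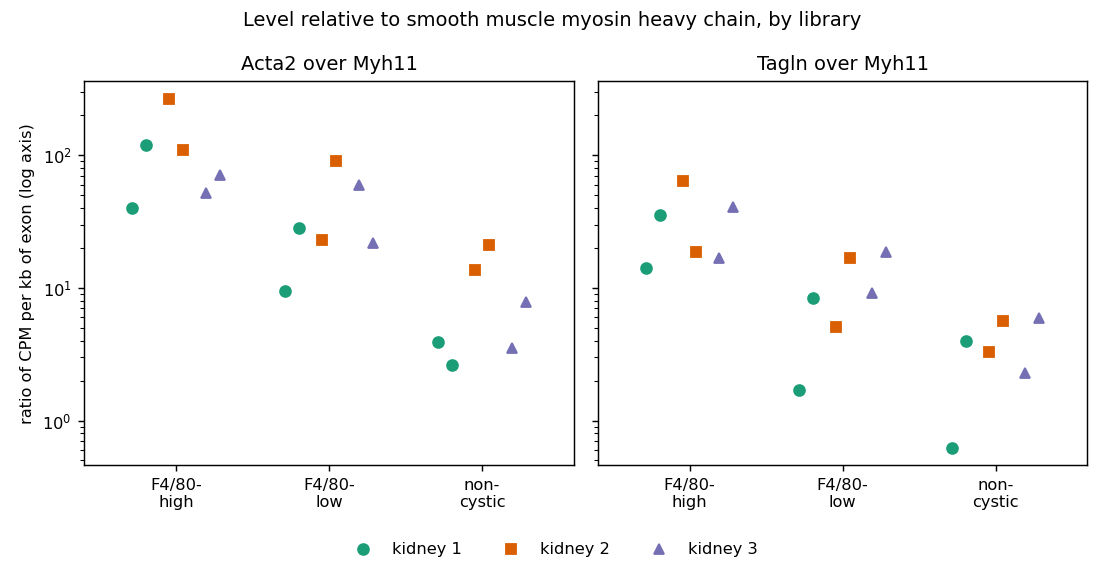
Ratio of Acta2 (left) and Tagln (right) to Myh11 in each of the 18 libraries by region type, as CPM per kb of exon on a log axis, with kidneys as symbols. The F4/80-high libraries lie between 40.2 and 267.4 for Acta2 and between 14.2 and 63.7 for Tagln, above all non-cystic libraries.

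Cspg4, on chromosome 9 at 56865033 to 56899870, plus strand, encodes NG2, a proteoglycan on the surface of pericytes. It had 5.51 to 20.1 CPM in F4/80-high libraries (median 13.8), 5.31 to 12.2 CPM in F4/80-low libraries (median 7.69) and 2.96 to 7.29 CPM in non-cystic libraries (median 3.82). Of the F4/80-high libraries, 5 of 6 lay above every non-cystic one. The F4/80-high level exceeded the non-cystic one by 1.57 ± 0.26 (log2, adjusted p = 0.00152), with 1.06, 1.86 and 1.74 in kidneys 1, 2 and 3, and this call held in 31 of 31 alternatives. F4/80-low exceeded non-cystic by 0.93 ± 0.26 (adjusted p = 0.146), nearly alike in the 3 kidneys (1.01, 0.89 and 0.87) but not called. F4/80-high exceeded F4/80-low by 0.63 ± 0.25 (adjusted p = 0.0936), and by 0.86 with a call (adjusted p = 0.0123) without replicate 1 of F4/80-high kidney 1. Without replicate 2 of the same kidney and region type it was 0.35 (adjusted p = 0.589). This difference was called in 3 of 31 alternatives.

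Mcam, on chromosome 9 at 44134469 to 44142727, plus strand, encodes CD146, an adhesion molecule of pericytes, smooth muscle and endothelium. It had 5.61 to 17.1 CPM in F4/80-high libraries (median 8.43), 2.25 to 15.4 CPM in F4/80-low libraries (median 10.0) and 1.34 to 6.39 CPM in non-cystic libraries (median 4.20). Both cystic region types reached above the non-cystic range, in 5 of 6 libraries each. F4/80-high exceeded non-cystic by 1.35 ± 0.46 (log2, adjusted p = 0.0452), F4/80-low exceeded non-cystic by 1.30 ± 0.46 (adjusted p = 0.284), and F4/80-high differed from F4/80-low by 0.05 ± 0.45 (adjusted p = 0.952). The first of these was the only one called, and it was lost in 10 of 31 alternatives. The adjusted p was 0.0510 to 0.119, with differences of 1.19 to 1.49, when 1 of 8 libraries was left out: F4/80-high kidney 1 or 3 replicate 2, replicate 1 of any F4/80-low kidney, non-cystic kidney 1 (either replicate) or kidney 3 replicate 2. Without kidney 1 it was 1.35 (adjusted p = 0.139), without kidney 2 it was 1.81 (adjusted p = 0.0389) and without kidney 3 it was 0.84 (adjusted p = 0.0610). F4/80-low against non-cystic was called without kidney 3 (1.53, adjusted p = 0.0239). Exons of Mcam overlap Gm10687 on the other strand.

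Rgs5, on chromosome 1 at 169655501 to 169695813, plus strand, encodes a regulator of G protein signalling and is among the strongest pericyte markers. It had 16.6 to 77.0 CPM in F4/80-high libraries (median 29.4), 13.2 to 57.7 CPM in F4/80-low libraries (median 20.3) and 2.50 to 33.6 CPM in non-cystic libraries (median 21.7). The ranges overlapped, and 3 of 6 F4/80-high libraries lay above every non-cystic one. F4/80-high exceeded non-cystic by 0.96 ± 0.33 (log2, adjusted p = 0.0485), the smallest difference of the 8 calls. It was lost in 17 of 31 alternatives. The adjusted p was 0.0506 to 0.196, with differences of 0.39 to 1.47, when 1 of 12 libraries was left out: F4/80-high kidney 1 replicate 1, kidney 2 replicate 2 or kidney 3 (either replicate), F4/80-low kidney 1 replicate 2, kidney 2 replicate 1 or kidney 3 replicate 1, or any non-cystic library but kidney 2 replicate 1. The lowest, 0.39 (adjusted p = 0.196), was without replicate 1 of F4/80-high kidney 3. It was also lost without kidney 1 (0.98, adjusted p = 0.0994) and without kidney 3 (0.55, adjusted p = 0.106). F4/80-low exceeded non-cystic by 0.42 ± 0.33 (adjusted p = 0.747), and this value ran from 0.10 without F4/80-low kidney 1 replicate 1 to 0.88 without non-cystic kidney 1 replicate 1, and was 0.02 without kidney 1. F4/80-high exceeded F4/80-low by 0.55 ± 0.33 (adjusted p = 0.266), and by 0.86 with a call (adjusted p = 0.0348) without replicate 1 of F4/80-low kidney 1. It was 0.0076 (adjusted p = 0.986) without replicate 1 of F4/80-high kidney 3 and 0.0258 (adjusted p = 0.957) without kidney 3 as a whole.

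Between genes, levels per length kept nearly the same order in the 3 region types. Myl9 stood first, with 223.2 ± 61.4 CPM per kb in F4/80-high, 97.9 ± 53.6 in F4/80-low and 75.2 ± 31.7 in non-cystic regions (SD, n = 3 kidneys). Acta2 stood second, with 80.2 ± 20.7 CPM per kb in F4/80-high, 30.6 ± 14.8 in F4/80-low and 14.2 ± 12.8 in non-cystic regions. Cnn1 stood last in each, at 0.655 ± 0.379, 0.4499 ± 0.199 and 0.297 ± 0.0338 CPM per kb in the same order. In F4/80-high regions the order between them was Tagln (23.5 ± 11.4), Tpm2 (14.2 ± 4.11), Des (10.1 ± 3.85), Rgs5 (8.21 ± 2.56), Mcam (3.04 ± 1.39), Myh11 (1.09 ± 0.714) and Cspg4 (1.06 ± 0.115). Neighbours from Tagln to Rgs5, and from Mcam to Cnn1, overlapped within 1 SD. In F4/80-low regions the neighbours apart by more were Acta2 from Tpm2 and Des from Mcam, and in non-cystic regions Myl9 from Acta2 and Mcam from Cspg4. Myh11 stood eighth in both cystic region types and seventh, above Mcam, in non-cystic regions, where it overlapped both neighbours.

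Over the 18 libraries, the genes nearest to Acta2 included other members of the list, and Myh11 was not among them. Nearness is the root mean square difference of log2(CPM + 0.5), each gene centred on its own mean. Gm48529 came first (0.75), followed by Vgll3 (0.85), Tpm2 (0.87), Rasl11a (0.90) and Tagln (0.91), where Acta2 itself had a spread of 1.77. Gm48529 overlaps exons of Tagln, and its counts cannot be told apart from those of Tagln without strand. Myl9 ranked 71, Mcam 111, Rgs5 291, Des 444, Cnn1 1591, Cspg4 1965 and Myh11 7938 from Acta2. The nearest to Myh11 were Rergl (0.59), Lmod1 (0.81), Gm47644 (0.82), 4631405J19Rik (0.82) and Stmn2 (0.84), against a spread of 1.30. Lmod1 encodes leiomodin 1, an actin filament nucleator of smooth muscle. Gm47644 overlaps exons of Pln, a gene of the contractile list, on the other strand. From Myh11, Rgs5 ranked 52, Cnn1 484, Myl9 531, Tpm2 7071, Mcam 8592, Cspg4 11671, Tagln 12872, Des 13363 and Acta2 14609. For Rgs5 the 5 nearest included Zfp983 (0.58), Lmcd1 (0.64), Tjp1 (0.65) and Itga9 (0.67), against a spread of 1.08. From Rgs5, Myl9 ranked 17, Tpm2 243, Mcam 425, Des 937, Cnn1 1584, Cspg4 1717, Tagln 1892, Myh11 2743 and Acta2 8701.

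Other genes of the contractile apparatus were in part higher in F4/80-high regions. Of 17 listed, 16 were tested, and in F4/80-high against non-cystic regions 8 were higher and 1 lower, with a median log2 difference of 1.17. Of all genes tested, 19.7% were higher and 19.5% lower there. Filamin A (Flna, 2.59 ± 0.33, edgeR adjusted p = 0.000584), alpha-actinin 1 (Actn1, 2.12 ± 0.32, adjusted p = 0.00101), caldesmon (Cald1, 2.19 ± 0.35, adjusted p = 0.00122) and vinculin (Vcl, 1.32 ± 0.24, adjusted p = 0.00236) rose. All 4 are also part of the cytoskeleton of non-muscle cells. In F4/80-high against F4/80-low regions 6 were higher and 1 lower, against 10.3% and 14.0% of all genes. In F4/80-low against non-cystic regions edgeR called 0, where 3 were higher and 0 lower at an unadjusted p below 0.05, DESeq2 called 1 higher and limma voom 2 higher. Leiomodin 1, picked out after its values were seen, differed by 0.15 ± 0.44 between F4/80-high and non-cystic regions (log2, adjusted p = 0.812) and by 0.18 ± 0.43 between F4/80-low and non-cystic regions (adjusted p = 0.942).

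Isoforms of the families of the 10 genes were called in both directions. Of 19 isoforms listed, 16 were tested, and 10 were higher and 1 lower in F4/80-high against non-cystic regions (median 0.98). Of all genes tested, 19.7% were higher and 19.5% lower. The tropomyosins Tpm4 (2.46 ± 0.26, adjusted p = 0.000185), Tpm1 (2.36 ± 0.29, adjusted p = 0.000363) and Tpm3 (0.92 ± 0.19, adjusted p = 0.00403) rose beside Tpm2. Vimentin (Vim), the intermediate filament of mesenchymal cells, rose by 3.05 ± 0.40 (adjusted p = 0.000861), and the calponin Cnn2 by 2.26 ± 0.50 (adjusted p = 0.0117). Cnn3 had 0.20 ± 0.18 (adjusted p = 0.413). Of the non-muscle myosin heavy chains, Myh9 rose by 1.21 ± 0.29 (adjusted p = 0.00971) and Myh10 by 0.65 ± 0.20 (adjusted p = 0.0269), whereas Myh14 fell by 1.498 on the log2 scale (SE 0.30, adjusted p = 0.00367). Of the cytoplasmic actins, Actb rose by 1.03 ± 0.29 (adjusted p = 0.0201) and Actg1 had 0.19 ± 0.29 (adjusted p = 0.639). The other higher genes were Tagln2 (1.45 ± 0.19, adjusted p = 0.000462), a transgelin of many cell types, and the light chain Myl12a (1.22 ± 0.21, adjusted p = 0.00170). In F4/80-low against non-cystic regions edgeR called 1 isoform, Tagln2 (1.04 ± 0.19, adjusted p = 0.0277), where 4 were higher and 0 lower at an unadjusted p below 0.05, by DESeq2 and by limma voom. EdgeR called 1.51% of all genes higher there. Between F4/80-high and F4/80-low regions 4 were higher (Tpm1, Tpm3, Tpm4 and Myl12a) and 1 was lower (Myh14), against 10.3% and 14.0% of all genes. There 8 were higher at an unadjusted p below 0.05, 7 by DESeq2 and 11 by limma voom, with 1 lower in each.

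**Figure D4:**
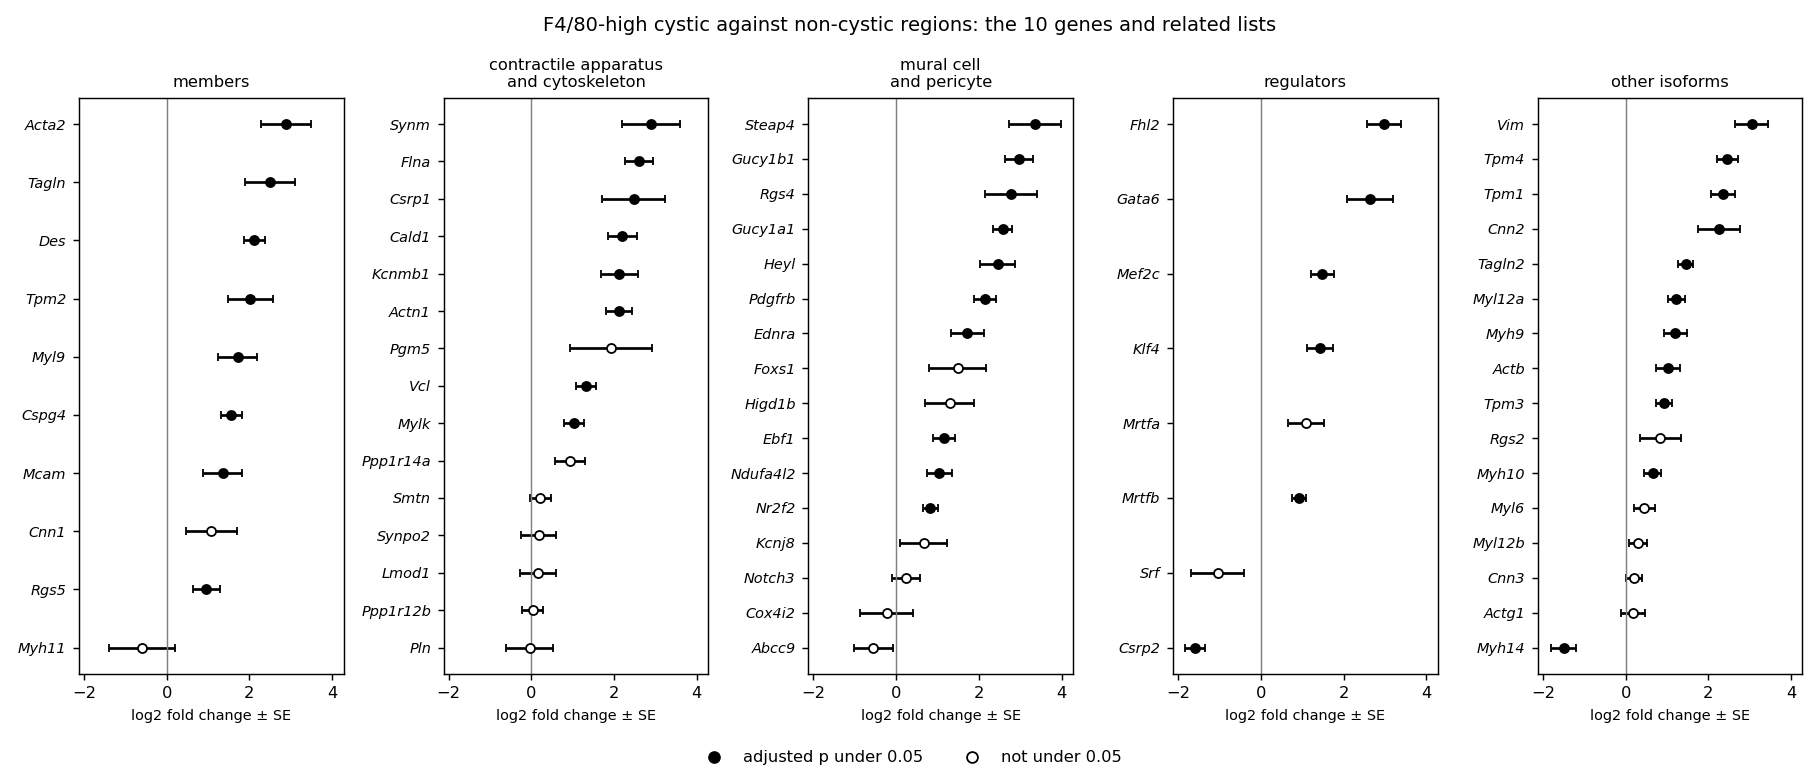
Log2 fold change with its standard error in F4/80-high against non-cystic regions for the 10 genes (left panel, titled members) and the tested genes of 4 related lists but for 1 contractile gene, ordered by size within a list. Filled points have an adjusted p under 0.05: 8 of 10 genes in the left panel, 8 of 15 contractile, 10 of 16 mural, 6 of 8 regulator and 11 of 16 isoform genes.

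Mural cell genes outside the 10 were mostly higher in F4/80-high regions. Of 18 listed, 16 were tested, and 10 were higher and 0 lower against non-cystic regions (median 1.39). The shares over all genes were 19.7% higher and 19.5% lower. DESeq2 called 10 higher and 0 lower, limma voom 12 higher and 0 lower, and at an unadjusted p below 0.05 10 were higher and 0 lower. The 2 subunits of soluble guanylate cyclase, the nitric oxide receptor, rose by 2.57 ± 0.23 (Gucy1a1, adjusted p = 8.57e-05) and 2.97 ± 0.34 (Gucy1b1, adjusted p = 0.000274). The platelet-derived growth factor receptor of pericytes and fibroblasts (Pdgfrb) rose by 2.15 ± 0.27 (adjusted p = 0.000427), and the Notch target Heyl by 2.45 ± 0.42 (adjusted p = 0.00176). Against F4/80-low regions 5 were higher and 1 lower, the channel subunit Abcc9 (-2.38 ± 0.45, adjusted p = 0.00627), named after its value was seen. There 10.3% of all genes were higher and 14.0% lower. In F4/80-low against non-cystic regions edgeR called 0, with 10 higher and 0 lower at an unadjusted p below 0.05, 5 higher by DESeq2 and 3 higher by limma voom. A list of 7 pericyte markers, Rgs5, Cspg4 and Mcam among them, summed to 100.1 to 235.9 CPM in F4/80-high libraries. It summed to 84.5 to 148.6 CPM in F4/80-low and 28.2 to 74.4 CPM in non-cystic libraries. Of the 7, edgeR called 4 higher and 0 lower in F4/80-high against non-cystic regions. Against F4/80-low regions it called 1 higher and 1 lower (median 0.05).

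Regulators of smooth muscle genes were called in both directions. Of 9 listed, 8 were tested, and 5 were higher and 1 lower in F4/80-high against non-cystic regions (median 1.26). Of all genes tested, 19.7% were higher and 19.5% lower. Fhl2, a LIM-domain cofactor, rose by 2.98 ± 0.41 (adjusted p = 0.00121), the transcription factor Mef2c by 1.48 ± 0.28 (adjusted p = 0.00327) and the myocardin-related factor Mrtfb by 0.92 ± 0.18 (adjusted p = 0.00313). Csrp2, the LIM protein of smooth muscle, fell by 1.60 on the log2 scale (SE 0.24, adjusted p = 0.000865). Against F4/80-low regions Fhl2 and Mef2c were higher and Csrp2 was lower, where 10.3% of all genes were higher and 14.0% lower. In F4/80-low against non-cystic regions edgeR called 0, with 3 higher and 0 lower at an unadjusted p below 0.05 and 0 called by DESeq2 and by limma voom.

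Markers of fibroblasts and macrophages were also higher in F4/80-high regions. The 13 matrix genes of fibroblasts and myofibroblasts summed to 794 to 2350 CPM in F4/80-high, 207.2 to 607.5 CPM in F4/80-low and 54.2 to 104.3 CPM in non-cystic libraries, and 9 of 10 tested were higher in F4/80-high than in non-cystic regions. Col3a1 rose by 5.26 ± 0.33 (adjusted p = 1.59e-05) and Col1a1 by 4.95 ± 0.33 (adjusted p = 2.16e-05), both fibrillar collagens. The 9 macrophage markers summed to 1924 to 6226 CPM in F4/80-high, 196.7 to 777.7 CPM in F4/80-low and 74.8 to 155.1 CPM in non-cystic libraries, and all 9 were higher in F4/80-high than in non-cystic regions. F4/80 was the basis on which the regions were chosen, so the macrophage rise is a check of the labels. Of the 8 proximal tubule markers, 7 were lower in F4/80-high than in non-cystic regions and 0 higher. Over all genes, 19.7% were higher and 19.5% lower in that comparison. The part of these cell types in the rise of the 10 genes was not tested.

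Vessel and glomerular markers were uneven between libraries. The 12 endothelial markers summed to 221.3 to 795.0 CPM in F4/80-high, 303.0 to 650.9 CPM in F4/80-low and 285.3 to 427.1 CPM in non-cystic libraries. In F4/80-high against non-cystic regions 1 of 12 was higher (Pecam1, 0.70 ± 0.21, adjusted p = 0.0264) and 1 was lower (Flt1, -0.65 ± 0.20, adjusted p = 0.0253), and the median log2 difference was 0.40, above 0 in 9 of 12. Of all genes tested, 19.7% were higher and 19.5% lower there. The same shares apply to the artery, renin cell and mesangial markers. The 5 artery markers summed to 12.7 to 61.6 CPM in F4/80-high, 7.42 to 52.9 CPM in F4/80-low and 7.87 to 22.1 CPM in non-cystic libraries, and 1 of 5 was higher in F4/80-high than in non-cystic regions, elastin (Eln, 2.07 ± 0.53, adjusted p = 0.0123). The median of the 5 was 0.95, and all 5 were above 0. Of the 4 renin cell and mesangial markers, summing to 38.9 to 237.5 CPM in F4/80-high, 28.5 to 193.4 CPM in F4/80-low and 15.6 to 144.3 CPM in non-cystic libraries, 2 were higher in F4/80-high, Itga8 (1.67 ± 0.47, adjusted p = 0.0242) and Akr1b7 (1.71 ± 0.57, adjusted p = 0.0458). DESeq2 called 3 of the 4, and their median was 1.69 with all 4 above 0, beside 1.64 for the 10 genes.

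The 9 podocyte markers summed to 80.0 to 793.7 CPM in F4/80-high, 67.5 to 426.6 CPM in F4/80-low and 64.2 to 257.8 CPM in non-cystic libraries. Replicate 1 of F4/80-high kidney 3, the library that was highest for 8 of the 10 genes, stood apart in several lists. It was the highest of the F4/80-high libraries for podocyte (793.7 CPM, next 422.1), artery (61.6, next 40.3), endothelial (795.0, next 469.1), pericyte (235.9, next 122.4, a list that includes members of the 10) and fibroblast matrix markers (2350, next 1339), and the lowest for proximal tubule markers (46.6, next 340.9). None of the 9 podocyte markers was called by edgeR in F4/80-high against non-cystic regions, where 1 was higher and 0 lower at an unadjusted p below 0.05 and DESeq2 and limma voom each called 2 higher. Their median there was 1.25, with 8 of 9 above 0. The part of these cell types in the spread of Acta2, Myh11 and Rgs5 between libraries was not tested. Striated muscle and urothelium markers were low: 2 of 8 and 1 of 5 passed the filter, Ckm, the muscle creatine kinase, had at most 13 counts in a library and Krt5, the keratin of basal urothelium, at most 3.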

How the data were processed

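RNA was taken by TRI reagent from regions microdissected out of frozen sections, and libraries were made with the NEBNext Single Cell/Low Input kit, per the labels' protocols. The submitters' processing notes name FastQC 0.11.9, fastp 0.20.1, HTSeq 0.11.0 and the mouse build mm10/GRCm38. Which aligner and gene annotation were used, and whether counting was stranded, is not given in the sources used here. Whole-number read counts per gene, not normalized, were deposited by the authors for 32285 genes, of which 4845 had no count.

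The 2 libraries of each kidney and region type were summed to 9 samples and fitted with edgeR 4.0.16 in R 4.3.3 (TMM scaling, filterByExpr, robust quasi-likelihood test, kidney as a block because the 3 region types come from the same kidneys, 4 residual degrees of freedom). Benjamini-Hochberg adjustment ran over 16034 genes, and calls have an adjusted p below 0.05. Standard errors were obtained by dividing each log2 fold change by the root of its F statistic. DESeq2 1.42.0 and limma 3.58.1 were alternatives, among 31 in all (10 other settings, 18 without 1 library, 3 without 1 kidney). The procedure was checked on simulated counts. The libraries of a pair differed by more than sampling noise in every pair. Exon lengths and positions are from GENCODE M21 (GRCm38), promoters from RefSeq (GRCm38.p6).

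The 10 genes and the other lists were chosen with earlier results of these data known. All 10 genes are named, up to 4 genes of each other list by smallest p in F4/80-high against non-cystic regions, isoforms freely, and the 5 genes nearest to Acta2, Myh11 and Rgs5. Among the listed and nearest genes, 2 are not reported here. Bounds from 3 counts cover counting error only.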

Additional observations from a re-analysis of the deposited data

Results flagged for a closer look

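Of 30 sets of 6 libraries (10 genes in 3 region types), 5 had a highest library whose gap to the next was large against the set's range, past Dixon's critical value. Chance flags about 1 in 20 sets where sets are independent and values normal. These are CPM on a linear scale, the sets share libraries, and 3 of the 5 come from 1 library. Replicate 1 of F4/80-high kidney 3 had 23.68 CPM of Myh11, 531.2 CPM of Myl9 and 80.08 CPM of Tpm2. Replicate 1 of F4/80-low kidney 1 had 57.73 CPM of Rgs5, and replicate 1 of non-cystic kidney 2 had 11.91 CPM of Des, where the next had 8.64 CPM.

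Mcam differed in direction between kidneys in F4/80-high against F4/80-low regions, with log2 differences of -0.7118 in kidney 1, -0.6796 in kidney 2 and 1.5806 in kidney 3. The difference between kidneys was not tested.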

How the results depend on the processing

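The 4 residual degrees of freedom and the low counts of Cnn1 limit what could be called, and the 3 kidneys give no estimate beyond this set. Des and Cspg4 kept their call in F4/80-high against non-cystic regions in 31 of 31 alternatives. Of the 10 genes, those called higher there, 8 in the reported fit, numbered 3 with no filter, 6 to 8 without 1 library and 3 to 8 without 1 kidney, and those called lower numbered 0 to 1 without 1 library or 1 kidney. In F4/80-low against non-cystic regions the 1 call became 0 with DESeq2 size factors, upper quartile factors, total counts, the stricter filter or the kidney as a random effect, 0 to 1 without 1 library and 0 to 2 without 1 kidney. In F4/80-high against F4/80-low regions the 1 call became 2 with the stricter filter, 3 with total counts, 5 with DESeq2, 4 with 18 libraries and the kidney as a block or as a random effect, 0 to 5 without 1 library and 0 to 3 without 1 kidney, where 0 to 1 were lower.

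Replicate numbers did not pair the libraries: within a kidney, the correlation of deviations between same-numbered libraries ran from -0.10 to 0.13. Between the summed region types of the same kidney it ran from -0.18 to 0.33, so the kidney paired the regions weakly at most. With kidney and replicate number as block, 5 of the 10 genes were higher in F4/80-high than in F4/80-low regions, and 501 genes were higher and 21 lower in F4/80-low against non-cystic and 2558 higher in F4/80-high against F4/80-low regions. With no block, 2 of the 10 were higher in F4/80-high than in F4/80-low regions.

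Over all genes, 242 were higher and 4 lower in F4/80-low against non-cystic regions. These became 500 and 23 with no filter, 601 and 74 with DESeq2, and 570 and 31 with 18 libraries and the kidney as block. Lower genes numbered 11 with the kidney as a random effect and 1 with total counts. Without 1 library the range was 31 to 381 higher and 0 to 12 lower, and without 1 kidney 22 to 549 and 1 to 29. In F4/80-high against non-cystic regions 3156 were higher and 3133 lower, 6608 and 1463 with total counts and 3621 and 2685 with upper quartile factors. Without 1 library these ran from 2720 to 3327 and 2616 to 3275, and without 1 kidney from 1737 to 2976 and 1622 to 2881. In F4/80-high against F4/80-low regions 1649 were higher and 2246 lower, 4211 and 1120 with total counts, 2101 and 1855 with upper quartile factors, and 2687 and 2926 higher with 18 libraries and the kidney as block or as random effect. Without 1 library these ran from 1096 to 1830 and 1661 to 2441, and without 1 kidney from 467 to 1168 and 521 to 1756. Total counts shifted the median log2 difference of all genes by 0.12 in F4/80-low against non-cystic, 0.61 in F4/80-high against non-cystic and 0.48 in F4/80-high against F4/80-low regions.

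No called difference changed sign. Among those not called, total counts turned Myh11 to 0.0283 in F4/80-high against non-cystic and 0.14 in F4/80-high against F4/80-low regions. Leaving out 1 library or kidney gave -1.16 to 0.27 for Myh11, -0.43 to 1.28 for Cnn1 and -0.0397 to 0.59 for Myl9 in F4/80-low against non-cystic regions, and -1.59 to 0.70 for Myh11, -0.33 to 1.4985 for Cnn1 and -0.70 to 0.49 for Mcam in F4/80-high against F4/80-low regions. The causes were not tested.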

Other observations

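A pair of pericyte genes, picked out after their values were seen, was high in F4/80-low regions. Most of their list, the mural cell genes outside the 10, went the other way between the cystic region types. In F4/80-high against F4/80-low regions 12 of the 16 tested were above 0 (median 0.70). There 5 were called higher and 1 lower, against 10.3% and 14.0% of all genes. Abcc9 and Kcnj8 encode the subunits of a potassium channel of pericytes and smooth muscle. Abcc9 had 1.53 to 4.82 CPM in F4/80-high, 8.11 to 25.3 CPM in F4/80-low and 1.60 to 7.47 CPM in non-cystic libraries, so every F4/80-low library lay above every other library, where 1.78% of all genes had all 6 F4/80-low above all 6 non-cystic libraries and 9.62% had all 6 F4/80-low above all 6 F4/80-high libraries. Kcnj8 had 2.52 to 6.46 CPM in F4/80-high, 7.93 to 20.2 CPM in F4/80-low and 0 to 6.70 CPM in non-cystic libraries, with the same separation. In edgeR's test F4/80-high against F4/80-low differed by -2.38 ± 0.45 for Abcc9 (adjusted p = 0.00627) and -1.36 ± 0.53 for Kcnj8 (adjusted p = 0.0958, not called). F4/80-low against non-cystic differed by 1.83 ± 0.45 for Abcc9 (adjusted p = 0.0994) and 2.02 ± 0.56 for Kcnj8 (adjusted p = 0.158), neither called.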
